A study of Mus musculus with 18 samples.

Results

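The Lce3 genes form group 3 of the late cornified envelope family, and all 6 of them, Lce3a, Lce3b, Lce3c, Lce3d, Lce3e and Lce3f, were followed through epidermis that had been stressed by tape stripping. They were found by symbol: each of the 6 genes was named by exactly 1 row of the array table, out of 22180 genes named by the 23521 rows that carry a single symbol, and 0 of the 1814 rows with several symbols held an Lce3 gene. The rows were picked by symbol and not by their values, although earlier results of these data were known when the group was chosen.

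RNA came from epidermal sheets of the back skin of female mice on a B6;129 background. AhR-/- mice (line B6.129-AhRtm1Bra/J, here KO) lack the aryl hydrocarbon receptor, a transcription factor that is switched on by small ligands, and their AhR+/+ littermates are called WT here. The series asks what this receptor does for the skin barrier. The knockout is constitutive, so it is not restricted to keratinocytes. The labels also mention conditional deletions in keratinocytes and in Langerhans cells, but all KO arrays here are labelled AhR-/-. All animals were shaved. The 0 h groups were unstressed, and the 6 h and 24 h groups were taken at those times after the skin had been stripped 5 times with adhesive film, which pulls off outer cornified layers. The 6 combinations of genotype and time were covered by 3 arrays each, 18 in all, and by the series design 3 KO and 3 WT littermates were taken at every time. Ages were not given in the labels.

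The deposited values were taken as log2 and had been centred by the authors, so that the median of every row over the 18 arrays is 0 to within 1e-06. A value of 1 therefore means about double that gene's own median. No level of one gene can be set against that of another, and no marker of the labelled tissue can be shown to be present or absent. Array medians lay between -0.0187 and 0.0107. Ahr itself was lower in KO than in WT at each time without overlap, running at 0 h from -0.13 to 0.04 (WT 0.07 to 0.63), at 6 h from -0.77 to -0.63 (WT 0.06 to 0.64), and at 24 h from -0.74 to -0.59 (WT -0.01 to 0.12). The KO arrays at 0 h overlapped the WT arrays at 24 h, however, and stood well above the KO arrays at 6 h and 24 h, so this row separates the genotypes within each time only, and KO 0 h is the baseline of the KO responses described here. The part of the transcript that this row probes was not assessed. In RNA from whole epidermal sheets, fewer cells of a type and less RNA per cell cannot be told apart.

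The cornified envelope is the layer of cross-linked protein that replaces the plasma membrane of keratinocytes as they turn into the dead squames of the skin surface. Transglutaminases build it from precursors such as involucrin, loricrin, the small proline-rich (SPRR) proteins and the late cornified envelope (LCE) proteins, small and rich in cysteine, glycine and serine, whose genes lie together with the others in the epidermal differentiation complex. In human skin, LCE genes of groups 1 and 2 belong to the normal programme of late differentiation, whereas group 3 genes are low in healthy skin and are induced by barrier disruption and in psoriasis, for which a deletion of LCE3B and LCE3C is a known risk allele.

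The 6 genes lie on mouse chromosome 3, and the sequence around their starts is shown here because 2 of the members varied far more between arrays than the other 4. Windows from RefSeq (GRCm38.p6) reach from 250 bases before to 50 bases after each start and were found for 6 of 6 genes. The 4 stretches printed run from 130 bases before to 20 after the start, 150 bases each, and belong to the 2 genes with the widest spread (Lce3c and Lce3d), to Lce3e, whose window is the closest to that of Lce3d, and to Lce3a, the member with the narrowest spread. Capitals mark the runs of identical bases described after them.
Lce3c, chr3:92944356-92944505, plus strand: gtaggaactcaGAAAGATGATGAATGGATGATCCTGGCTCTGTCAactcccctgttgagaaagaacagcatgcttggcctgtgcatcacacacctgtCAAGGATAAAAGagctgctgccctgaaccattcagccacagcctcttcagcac
Lce3d, chr3:92957260-92957409, plus strand: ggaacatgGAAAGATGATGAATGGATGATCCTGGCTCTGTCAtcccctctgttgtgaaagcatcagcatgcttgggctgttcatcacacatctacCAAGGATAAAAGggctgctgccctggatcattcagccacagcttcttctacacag
Lce3e, chr3:92966931-92967080, plus strand: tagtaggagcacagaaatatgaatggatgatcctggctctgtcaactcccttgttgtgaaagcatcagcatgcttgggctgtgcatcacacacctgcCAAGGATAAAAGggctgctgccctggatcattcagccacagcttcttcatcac
Lce3a, chr3:92926211-92926360, minus strand: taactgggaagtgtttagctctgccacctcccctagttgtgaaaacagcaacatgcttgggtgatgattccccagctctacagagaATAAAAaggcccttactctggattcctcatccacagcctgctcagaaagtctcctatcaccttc

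The longest run common to Lce3c and Lce3d in these windows was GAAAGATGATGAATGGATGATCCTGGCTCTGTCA, 34 bases from -119 to -86 in Lce3c and from -122 to -89 in Lce3d, counted from the transcript start. Of the 32851 windows of this length in the table, 2 held it in full, those of Lce3c and Lce3d. All but the first few bases of the run also stand unbroken in the printed stretch of Lce3e, left there in lower case. The run therefore does not set Lce3c and Lce3d clearly apart from Lce3e. The 12-base run CAAGGATAAAAG ended 22 to 24 bases before the start in Lce3c, Lce3d, Lce3e and Lce3f, and was present in 5 windows, or 0.0152% of all. Its inner part AGGATAAAAG was also present in Lce3b, and stood in 0.0944% of all windows. Lce3a had in common with the others no run at that place longer than ATAAAA, which 18.5% of all windows contain, and there it lay further out, from -44 to -39. These runs were looked for in the members on the given strand after the sequences had been seen. Their counts over all windows cover both strands.

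Over the whole window, identity was highest between Lce3d and Lce3e (83.8%), followed by Lce3c with Lce3e (79%) and Lce3c with Lce3d (77.2%). Lce3f shared 63.3% to 69.1% with those 3 genes, and every pair with Lce3a or Lce3b lay between 56.4% and 59.7%. Lce3e thus resembled Lce3c and Lce3d in sequence at its start, while its array values did not follow theirs as closely as the values of Lce3c and Lce3d followed each other. On both strands, 0 of the 6 windows held GCGTG, the core bound by the receptor with its partner ARNT (32.4% of all windows), TGANTCA of AP-1 factors (7.81%), TTGCNNCAA of C/EBP factors (2.08%) or AACNGGTT of grainyhead-like factors (2.09%). The letters TATAAA were found in 1 window, that of Lce3e, against 13.6% of all. These searches describe letters in 300 bases and say nothing of where any factor binds.

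Lce3c and Lce3d were among the most variable rows of the whole table. Over the 18 arrays the SD of Lce3d was 1.06 and that of Lce3c 0.77, which placed them at the 99.96 and 99.87 percentiles of all rows tested. The values of Lce3d ran from -1.22 to 2.86 and those of Lce3c from -0.55 to 1.99. Lce3f followed with an SD of 0.24 (percentile 85.52), a range of 1.03 and a highest value of 0.95, and Lce3e with an SD of 0.16 (percentile 62.07). The SDs of Lce3b (0.15) and Lce3a (0.089) stood at the percentiles 57.54 and 27.5.

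**Figure D1:**
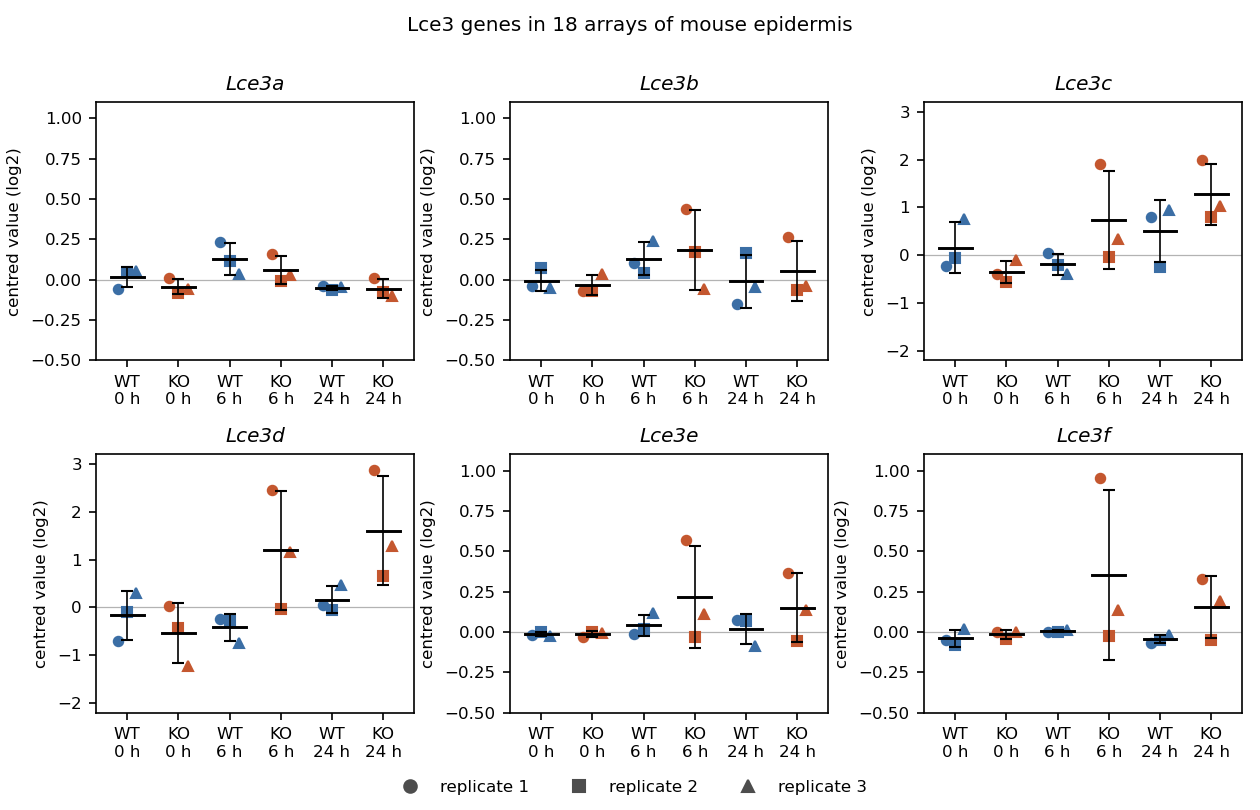
Centred log2 value of each Lce3 gene on each of the 18 arrays, by genotype and time; points are arrays with a shape per replicate number, and the horizontal bar and whiskers give the mean and SD of 3 arrays. The axis is wider for Lce3c and Lce3d than for the other 4 genes, and replicate 1 of KO 6 h and of KO 24 h give the highest values of Lce3c, Lce3d, Lce3e and Lce3f (2.45 and 2.86 for Lce3d).

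Lce3d reached its highest values in KO epidermis after stripping. In KO the 3 unstressed arrays gave 0.03, -0.44 and -1.22, the 6 h arrays 2.45, -0.03 and 1.17, and the 24 h arrays 2.86, 0.66 and 1.29. In WT the unstressed arrays gave -0.71, -0.09 and 0.31, the 6 h arrays -0.23, -0.29 and -0.74, and the 24 h arrays 0.06, -0.06 and 0.48. All 3 KO arrays at 24 h lay above every WT array and every KO array at 0 h, whereas 1 KO array at 6 h, replicate 2, stayed at the 0 h level.

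Lce3c followed the same order of groups with more spread in WT. Its values in KO were -0.38, -0.55 and -0.10 before stripping, 1.90, -0.04 and 0.34 after 6 h, and 1.99, 0.81 and 1.02 after 24 h. In WT they were -0.24, -0.06 and 0.76 before stripping, 0.04, -0.20 and -0.40 after 6 h, and 0.81, -0.25 and 0.95 after 24 h. At 24 h the genotypes overlapped, since 2 of 3 WT arrays were as high as the lower KO arrays, and 1 unstressed WT array reached 0.76.

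Lce3f and Lce3e stayed close to 0 on all but a few arrays. Lce3f was between -0.08 and 0.02 on all 9 WT arrays and on the 3 KO arrays at 0 h, and gave 0.95, -0.03 and 0.13 in KO at 6 h and 0.33, -0.05 and 0.19 at 24 h. Lce3e gave 0.57, -0.03 and 0.11 in KO at 6 h and 0.37, -0.06 and 0.14 at 24 h, and lay between -0.09 and 0.11 on the other 12 arrays. In both genes replicate 1 of KO at 6 h was the highest array, replicate 1 of KO at 24 h came next, and replicate 2 at either time was no higher than unstressed skin.

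Lce3b and Lce3a had the narrowest spread of the 6. Lce3b ranged from -0.06 to 0.44 in KO at 6 h and from 0.04 to 0.24 in WT at 6 h, with the other groups between -0.15 and 0.27. Lce3a was highest in WT at 6 h, at 0.23, 0.11 and 0.04, and its values on the other 15 arrays ran from -0.10 to 0.16. Ordered by group mean, Lce3c and Lce3d ran alike from KO 24 h (1.27 ± 0.63 and 1.60 ± 1.14, SD, n = 3) through KO 6 h (0.73 ± 1.03 and 1.20 ± 1.24), WT 24 h (0.50 ± 0.65 and 0.16 ± 0.28), WT 0 h (0.16 ± 0.53 and -0.16 ± 0.51) and WT 6 h (-0.19 ± 0.22 and -0.42 ± 0.28) to KO 0 h (-0.34 ± 0.23 and -0.54 ± 0.63). In each of the 6 genes, groups next to each other in the order differed by less than the larger SD of that pair.

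Within KO epidermis, 2 of the 6 genes rose between 0 h and 24 h. Lce3d was higher at 24 h by 2.14 (SE 0.58, 95% interval 0.91 to 3.37, limma adjusted p = 0.0297), or 4.42-fold. Lce3c was higher by 1.62 (SE 0.45, interval 0.65 to 2.59, adjusted p = 0.0366), or 3.07-fold, and for both genes the 3 arrays at 24 h lay above the 3 at 0 h. Here a gene is called when limma's p, adjusted over all 23521 rows, is under 0.05; the call was met by 9.56% of all rows in this comparison, and by 3.09% with the higher level at 24 h, while 15.8% of rows were higher at 24 h without overlap. The other 4 members differed by -0.01 (Lce3a) to 0.17 (Lce3f), with adjusted p from 0.492 to 0.936; without KO 24 h replicate 1, the differences of Lce3e and Lce3f were 0.05 and 0.08 in place of 0.16 and 0.17. The median difference of the 6 genes was 0.17 and that of all rows 0.02.

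The precision of 3 arrays a group limits both calls. Each SE pools the spread of all 6 groups, although the SD of Lce3d was 1.14 in KO at 24 h and 0.28 in WT at 24 h. In a limma fit on KO 0 h and KO 24 h alone, Lce3d was not called (adjusted p = 0.0655), and Lce3c was (0.0224). Lce3d was no longer called without KO 0 h replicate 2 (adjusted p = 0.0736) or replicate 3 (0.135), or without KO 24 h replicate 1 (0.131) or replicate 3 (0.0553). Lce3c was no longer called without KO 0 h replicate 1 (0.0801), 2 (0.114) or 3 (0.0772), or without KO 24 h replicate 1 (0.151) or 3 (0.064). Without KO 24 h replicate 1, the highest array, the differences were 1.51 for Lce3d and 1.26 for Lce3c. With both high arrays left out (replicate 1 of KO 6 h and of KO 24 h), a choice made after the values were seen, both genes were called, at adjusted p = 0.0469 for Lce3d and 0.0449 for Lce3c. Samples also carry a number in the labels whose meaning is not stated, below 3000 for 7 arrays at 0 h and 6 h and above it for the rest. Among the numbers from 3000 up, the differences were 2.43 for Lce3d (adjusted p = 0.0323) and 1.60 for Lce3c (0.0535), and with the number class as a block they were 2.10 (0.0407) and 1.49 (0.0534); below 3000 there was no 24 h array.

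In WT epidermis none of the 6 genes was called between 0 h and 24 h, when 0.0298% of all rows were. Lce3c differed by 0.35 (SE 0.45, interval -0.62 to 1.32, adjusted p = 0.824) and Lce3d by 0.32 (SE 0.58, interval -0.91 to 1.55, adjusted p = 0.885), and 0 of 6 members had an unadjusted limma p under 0.05 against 2946 of all rows. Leaving out single arrays moved these differences between 0.13 and 0.72 for Lce3c and between 0.05 and 0.56 for Lce3d. A call in KO and none in WT does not show that the genotypes differ, so the difference between the 24 h responses was tested itself. It was 1.82 for Lce3d (SE 0.81, interval 0.09 to 3.56, adjusted p = 0.516) and 1.27 for Lce3c (SE 0.64, interval -0.10 to 2.64, adjusted p = 0.584), and without KO 24 h replicate 1 that for Lce3d was 1.19. All 6 members were above 0 in this difference, as 50.9% of all rows were. An unadjusted p under 0.05 was met by 1 of them (Lce3d) and by 2165 of all rows. limma called 0 of 6 members and 0% of all rows.

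**Figure D2:**
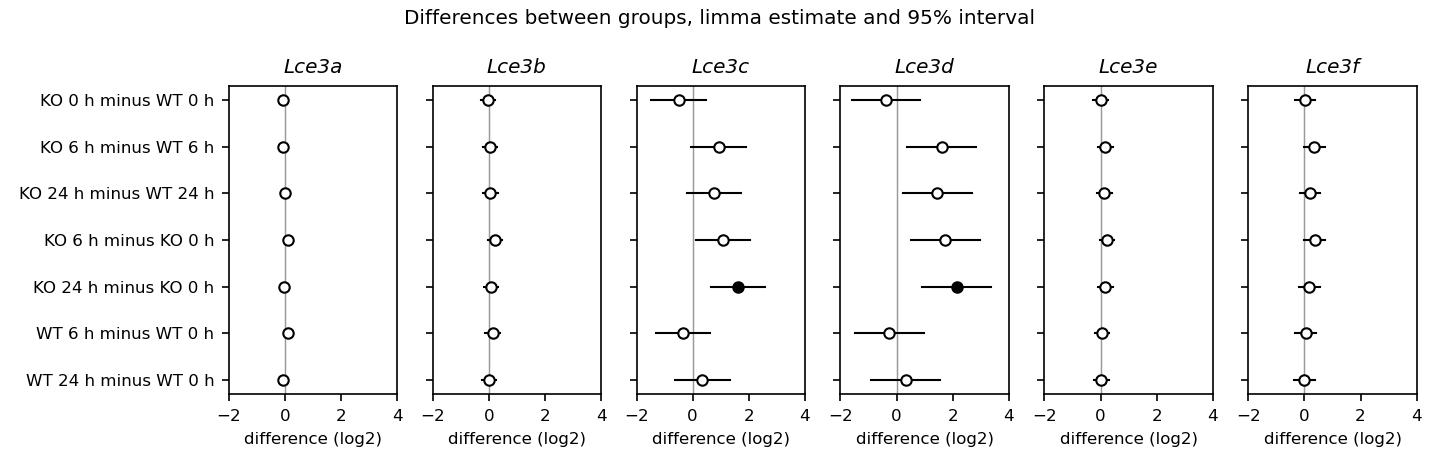
Difference between groups for each Lce3 gene (log2, limma estimate, with its 95% interval as a line), first group minus second; filled points passed an adjusted p of 0.05 over all rows. The filled points are Lce3c at 1.62 and Lce3d at 2.14 in KO 24 h minus KO 0 h, and the intervals of the other 4 genes are narrower and lie nearer 0.

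At 6 h the KO response was of similar size for Lce3d but did not pass. Lce3d was 1.73 above KO 0 h (SE 0.58, adjusted p = 0.0953), with replicate 2 inside the range of the unstressed arrays. Lce3c was 1.08 above it (SE 0.45, adjusted p = 0.188), and it was the 1 member whose groups did not overlap, as 11.9% of all rows were in that direction. All 6 members had a positive difference, as 56.6% of all rows did, with a median of 0.30 against 0.02 over all rows. Lce3f differed by 0.37 (adjusted p = 0.243), Lce3e by 0.23 (0.319), Lce3b by 0.22 (0.314) and Lce3a by 0.10 (0.36). limma called 0 of 6 members and 4.98% of all rows, and 2 of the 6 had an unadjusted p under 0.05, against 20.7% of all rows. Lce3d was called when KO 6 h replicate 2 was left out (2.35, adjusted p = 0.0426), which also took Lce3e to 0.36 and Lce3f to 0.56. Without KO 6 h replicate 1 all of these differences shrank, to 1.11 for Lce3d (adjusted p = 0.251), 0.50 for Lce3c (0.495), 0.07 for Lce3f (0.697) and 0.05 for Lce3e (0.804). That array is the only KO 6 h array with a number from 3000 up, and against the 2 such KO 0 h arrays it was 3.28 higher for Lce3d and 0.97 higher for Lce3f. Below 3000, where KO 0 h has 1 array and KO 6 h has 2, the difference for Lce3d was 0.53. With 1 array in an arm, these values have no replicate check.

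In WT at 6 h, Lce3c and Lce3d were slightly below their 0 h means, by -0.34 (adjusted p = 1) and -0.26 (adjusted p = 1), where 0% of all rows were called and 1086 had an unadjusted p under 0.05, 0 of them Lce3 genes. The difference between the KO and WT responses at 6 h was 1.99 for Lce3d (SE 0.81, interval 0.25 to 3.73, adjusted p = 0.292) and 1.42 for Lce3c (SE 0.64, interval 0.05 to 2.79, adjusted p = 0.36), or 1.36 and 0.84 without KO 6 h replicate 1. Both had an unadjusted p under 0.05, as 13.1% of all rows did, and neither was called, against 0.731% of all rows.

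From 6 h to 24 h the WT arrays of 3 members separated, with Lce3d higher at 24 h by 0.58 (adjusted p = 0.864) and Lce3a and Lce3f lower, by -0.18 (0.515) and -0.05 (0.982). Groups without overlap in either direction made up 12.9% of all rows in that comparison, and limma called 0% of all rows and 0 of 6 members, of which 1 (Lce3a) had an unadjusted p under 0.05, against 1833 of all rows. Lce3c was 0.69 higher at 24 h (adjusted p = 0.76) with overlap. In KO the step from 6 h to 24 h was 0.54 for Lce3c (adjusted p = 0.703) and 0.41 for Lce3d (0.861), and the other 4 members differed by -0.20 to -0.07. None was called by limma or had an unadjusted p under 0.05, while 1.24% of all rows were called and 13.8% had such an unadjusted p.

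Between the genotypes, Lce3d stood higher in KO at both times after stripping without passing the test. At 6 h it was 1.61 higher in KO (SE 0.58, interval 0.39 to 2.84, adjusted p = 0.166), and its 3 KO arrays lay above the 3 WT arrays, as 7.42% of all rows did. At 24 h it was 1.45 higher (SE 0.58, interval 0.22 to 2.67, adjusted p = 0.686), again without overlap, a pattern met by 6.36% of all rows. Lce3c was 0.92 higher at 6 h (adjusted p = 0.348) and 0.77 higher at 24 h (0.809), and Lce3f 0.35 (0.351) and 0.20 (0.888). Without KO 6 h replicate 1 the 6 h differences fell to 0.99 for Lce3d, 0.34 for Lce3c and 0.05 for Lce3f, and without KO 24 h replicate 1 the 24 h differences fell to 0.82, 0.41 and 0.12. Lce3c at 24 h was also down to 0.40 without WT 24 h replicate 2, and without replicate 2 of KO at 6 h or 24 h Lce3f was 0.54 and 0.31. At each of the 2 times 5 of 6 members were above 0, with Lce3a the exception. Of all rows, 52.5% were above 0 at 6 h and 49.7% at 24 h. The medians of the members were 0.26 and 0.17 against 0.01 and 0.00 over all rows. limma called 0 of 6 at either time, against 2.18% of all rows at 6 h and 0.017% at 24 h. At each time 1 of the 6 (Lce3d) had an unadjusted p under 0.05, as did 15.8% of all rows at 6 h and 6.71% at 24 h.

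The number class of the arrays bears on the 6 h comparison, where each genotype has 1 array from 3000 up and 2 below. Within these classes Lce3d was higher in KO by 2.69 and by 1.08, and Lce3c by 1.86 and by 0.45; the upper class is 1 array against 1, with KO 6 h replicate 1 among them, and so gives a single difference without replicates. At 24 h every array was in the upper class.

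Before stripping the differences of the same pair of genes had the opposite sign. Lce3c was -0.50 in KO against WT (SE 0.45, interval -1.47 to 0.47, adjusted p = 0.882) and Lce3d -0.38 (SE 0.58, interval -1.61 to 0.85, adjusted p = 0.956), with all groups overlapping, and the other 4 differed by -0.06 to 0.03. Leaving out single arrays moved Lce3c between -0.70 and -0.20 and Lce3d between -0.67 and -0.04. limma called 0 of 6 members and 0.0978% of all rows. An unadjusted p under 0.05 was met by 0 members and by 8.48% of all rows. Averaged over the 3 times, Lce3d was 0.89 higher in KO (SE 0.33, adjusted p = 0.28). In that average 1 of the 6 members had an unadjusted p under 0.05, against 12.3% of all rows. limma called 0 members there and 0.374% of all rows.

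Averaged over both genotypes, the difference between 24 h and 0 h was 1.23 for Lce3d (SE 0.41, adjusted p = 0.0674) and 0.98 for Lce3c (SE 0.32, adjusted p = 0.064). Both narrowly missed the call, which 10.8% of all rows met, and leaving out some single arrays brought them under it: 1 member was called without WT 0 h replicate 3, KO 6 h replicate 2, KO 24 h replicate 2 or WT 24 h replicate 2, and 2 without KO 6 h replicate 1. The comparisons above share arrays, such as KO 0 h in both KO responses, and are not independent of each other.

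The 6 members did not vary as 1 block. Over the 18 arrays Lce3c and Lce3d had a Pearson r of 0.88 and a Spearman rho of 0.83, and r was 0.71 over the 16 arrays left without replicate 1 of KO 6 h and of KO 24 h. Lce3e and Lce3f had an r of 0.93 and a rho of 0.50, and r was 0.58 over those 16 arrays, so that this pair rested largely on the 2 high arrays. Lce3d with Lce3f fell from 0.76 to 0.58 and Lce3c with Lce3e from 0.68 to 0.01. Lce3a had r between 0.10 and 0.48 with the other 5. These are descriptions over arrays that share groups and hybridisations, and whether near-identical Lce3 transcripts share probes was not tested.

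**Figure D3:**
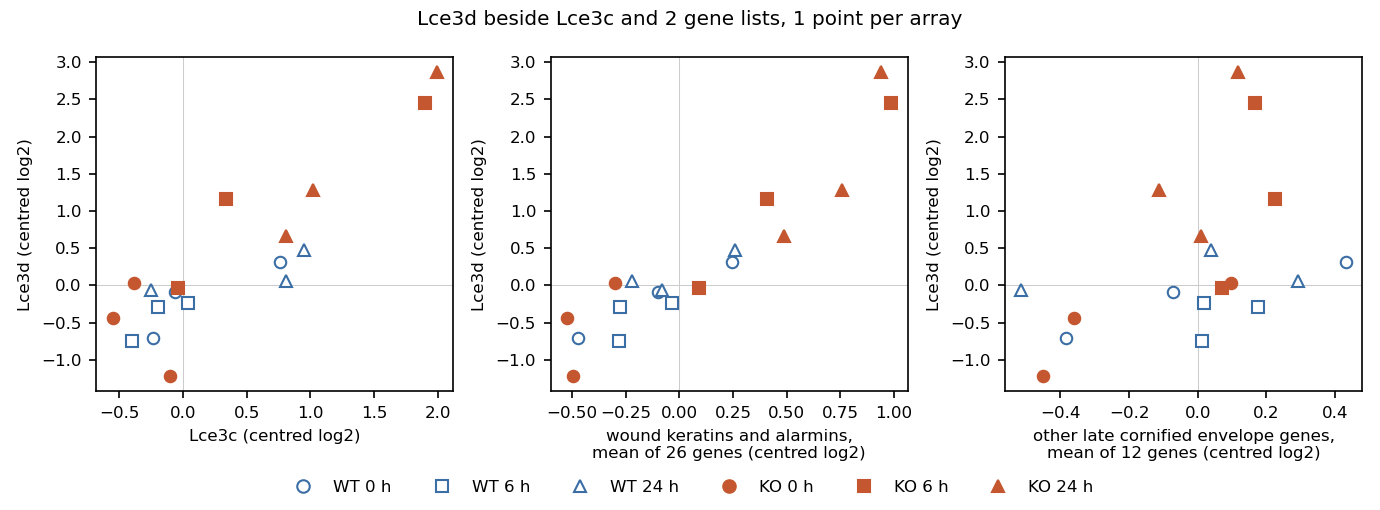
Lce3d (centred log2) on each of 18 arrays against Lce3c, the mean of 26 wound keratins and alarmins and the mean of 12 other late cornified envelope genes; filled symbols are KO, open symbols WT, and shapes mark the times. Points rise together in the first 2 panels (r of 0.88 and 0.94) and scatter in the last (0.44).

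By the same measure, the genes whose pattern was most like that of Lce3c over the 18 arrays were the small proline-rich gene Sprr2d (r = 0.94), Nppb, which encodes brain natriuretic peptide (0.93), the actin-bundling protein fascin, Fscn1 (0.93), Qtrt1, a subunit of the tRNA-guanine transglycosylase (0.93), and Klk6, a secreted serine protease of the kallikrein family (0.92). For Lce3d they were annexin A3, Anxa3 (0.95), the helicase Ruvbl2 (0.94), glutaredoxin, Glrx (0.94), Nppb (0.94) and Sprr2e (0.93). These r stayed between 0.80 and 0.89 over the 16 arrays left without the 2 high ones. Lowest of all were Tmem65, Ccpg1 and Pon3 for Lce3c (r from -0.86 to -0.85) and Rell1, Srgap2 and Rufy2 for Lce3d (from -0.87 to -0.86).

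The genes nearest to Lce3f and Lce3e rested more on the 2 high arrays. For Lce3f they were Has3, a hyaluronan synthase (0.97), Mmp13, a collagenase (0.96), Aadacl4fm2 (0.95), the cytokine Il20 (0.94) and the protease inhibitor Timp1 (0.93). For Lce3e they were Lce3f (0.93), Aadacl4fm2 (0.91), the prostaglandin E synthase Ptges (0.88), the cytokine Il24 (0.88) and Timp1 (0.88). Without the 2 high arrays r fell to 0.21 for Il20 with Lce3f and to 0.30 for Il24 with Lce3e, and only Has3 (0.77) stayed above 0.7. The best matches of Lce3a, Pcdhb11 (0.84) and Spcs2 (0.83), and of Lce3b, Tns3 (0.87) and Pgam5 (0.84), had lower r.

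Set beside the other precursors of the envelope, Lce3c and Lce3d went with small proline-rich genes more than with other LCE genes. The r of Lce3d with the mean of 12 measured small proline-rich genes was 0.93 (0.83 without the 2 high arrays), with the mean of 26 wound keratins and alarmins 0.94 (0.91), and with the mean of the 12 measured LCE genes of other groups, out of 19 listed, 0.44 (0.46). In KO from 0 h to 24 h, 0 of these 12 other LCE genes were called by limma, and 1 of them, Lce1h, had an unadjusted p under 0.05, at 1.15 (SE 0.38, adjusted p = 0.0752). Lce1f was next at 0.56 (adjusted p = 0.268), and 11 of the 12 were above 0, with a median difference of 0.16. Of all rows, 59% were above 0 and 22.9% had an unadjusted p under 0.05.

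Small proline-rich genes, which encode cross-bridging precursors of the envelope, rose in 4 of 12 cases in the same comparison, and 0 fell: Sprr1b by 3.38 (SE 0.52, adjusted p = 0.00219), Sprr2e by 1.73 (0.0285), Sprr2h by 0.93 (0.00207) and Sprr2b by 0.93 (0.0256). All 12 were above 0, with a median of 0.57. Among all rows, 59% were above 0, 9.56% were called in either direction and 3.09% were called as higher at 24 h. The remaining envelope genes went the other way where they passed: 4 of 24 fell and 0 rose. These were the filaggrin relative Flg2 (-0.88, adjusted p = 0.0137), involucrin, Ivl (-0.71, 0.0383), the desmosomal cadherin Dsg1a (-0.67, 0.0184) and periplakin, Ppl (-0.32, 0.037), and the median of the list was -0.04. Thus the RNA of Lce3c and Lce3d rose, while 4 of these 24 envelope genes fell and the rest were not called. Of the 24, 10 were above 0.

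Wound-response genes rose with them. In KO from 0 h to 24 h, 9.56% of all rows were called in either direction and 3.09% were called as higher at 24 h. Of 26 wound keratins and alarmins, 8 rose and 0 fell there, with a median of 0.69. Among these were the stress keratins Krt6b (5.34, SE 0.79, adjusted p = 0.00204) and Krt16 (3.41, 0.00165), the stefins Stfa1 (3.60, 0.0034) and Stfa3 (2.85, 0.00162), which inhibit cysteine proteases, and the alarmin S100a9 (0.84, 0.0028). In WT over the same interval limma called 0 genes of these lists, with an unadjusted p under 0.05 for 1 wound gene, 2 of the remaining envelope genes and 0 small proline-rich or other LCE genes; the smallest p among wound genes were those of Il1b (-1.30, adjusted p = 0.182) and Krt6b (1.62, 0.427), and among small proline-rich genes that of Sprr1b (0.90, 0.528). Of all rows in that WT comparison, 0.0298% were called and 12.5% had an unadjusted p under 0.05. The absence of calls in WT therefore does not set these lists apart from all rows. The mean of the wound list ran from -0.53 to -0.30 in KO at 0 h, from 0.09 to 0.99 in KO at 6 h and from 0.49 to 0.94 in KO at 24 h, and from -0.47 to 0.26 over the 9 WT arrays. The 2 arrays highest in Lce3d were also the 2 highest in this list.

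**Figure D4:**
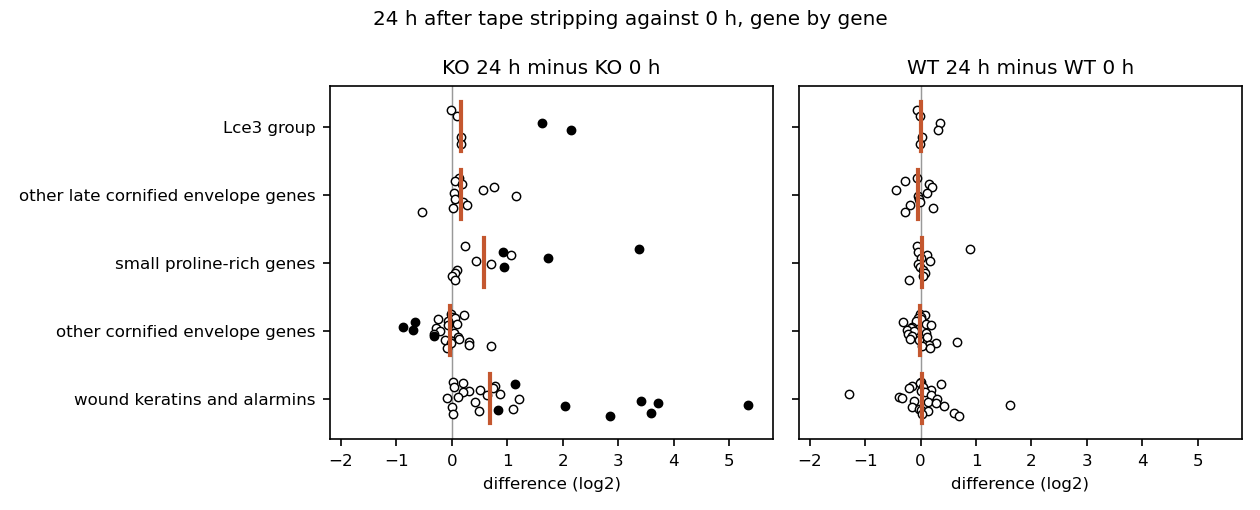
Difference between 24 h and 0 h (log2) for each gene of 5 lists, in KO on the left and in WT on the right; each point is a gene, filled where limma's adjusted p was under 0.05, and the vertical bar is the list's median. In KO, Lce3c and Lce3d, 4 small proline-rich genes and 8 wound genes are filled to the right of 0 and 4 other envelope genes to the left; in WT no point is filled.

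At 6 h the list counts between the genotypes were lower in KO for envelope and regulator genes and higher for wound genes. Of 24 other envelope genes 5 were lower in KO than in WT, among them Evpl (-0.50, adjusted p = 0.0143) and Ppl (-0.46, 0.0219), which encode linker proteins of the envelope, and Flg2 (-0.86, 0.0402), while 0 were higher. Of 23 regulators of late differentiation 6 were lower. Ahr, the gene knocked out, was among them by design. The others were Pou2f3 (-0.64, 0.0202), Rxra (-0.51, 0.027), Cebpa (-0.54, 0.0308), Ovol1 (-0.94, 0.0378) and Klf4 (-0.30, 0.0392). Of 26 wound genes 3 were higher, Defb3 (1.04, 0.0331), Il1b (1.80, 0.0346) and Krt6b (3.21, 0.0499). In that comparison 0 of the 12 small proline-rich and 0 of the 12 other LCE genes were called by limma, 3 and 0 of them with an unadjusted p under 0.05. The shares of all rows were 2.18% called and 15.8% with an unadjusted p under 0.05. Between KO 0 h and KO 24 h, 1 regulator rose, Cebpb (0.55, 0.016), and 3 fell, the basal factor Trp63 (-0.37, 0.0147), Gata3 (-0.47, 0.0338) and Ahr (-0.62, 0.0147), whose KO 0 h arrays lay near the WT 24 h arrays as given above. For that step 9.56% of all rows were called in either direction and 3.09% were called as higher at 24 h.

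Markers of other cells moved with some of these groups. The mean of 9 neutrophil and monocyte markers lay between -0.12 and 0.01 in KO at 0 h, between 0.05 and 0.36 in KO at 6 h, with replicate 1 the highest of all 18 arrays, and between 0.03 and 0.19 in KO at 24 h, against -0.13 to 0.06 in WT. None of the 9 was called by limma in KO from 0 h to 24 h, 2 had an unadjusted p under 0.05, and the r of this mean with Lce3d was 0.83 (0.75 without the 2 high arrays). The mean of 7 epidermal T cell markers was below 0 on all KO arrays, from -1.09 to -0.16, and above 0 on all WT arrays, from 0.15 to 0.74, and its r with Lce3d was -0.32. In KO from 0 h to 24 h, 1 rose and 2 fell of 7 basal and likewise of 7 spinous keratinocyte markers, 1 rose of 8 sebaceous gland and of 6 Langerhans cell markers, and 1 fell of 12 hair follicle and of 6 melanocyte markers. Of 6 dermal fibroblast and 7 T cell markers limma called 0 there, with an unadjusted p under 0.05 for 0 and 2 of them. Among all rows in that comparison, 9.56% were called, 3.09% were called as higher at 24 h, and 22.9% had an unadjusted p under 0.05. Lists with 1 called gene are therefore not set apart from all rows. The part of any of these cells in the Lce3 values was not tested.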

How the data were processed

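RNA from epidermal sheets of 18 mice was converted to biotin-labelled cDNA and hybridised to Affymetrix gene arrays, per the labels' protocols. Each array was treated as 1 animal; p-values measure the spread between these samples. The authors deposited 1 table of 33793 rows, taken as log2 values from the numbers themselves (-6.4 to 4.3); the base is not stated, and with a natural log all differences would be larger by 1 common factor. Rows had been centred on their median. Not given in the sources used here were the background correction, summarisation, normalisation and software. No level is left, so dim rows could not be filtered and depth is the number of arrays.

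Groups came from the sample titles. limma 3.58.1 in R 4.3.3 was fitted to the 23521 rows with 1 symbol in the platform table (8458 rows had none), with a mean for each of 6 groups (12 residual and 2.76 prior degrees of freedom), 13 contrasts and Benjamini-Hochberg adjustment over all rows; it was tested on simulated data. An exact test of 3 against 3 arrays cannot go below p = 0.1. Replicate numbers did not pair the samples: arrays of the same number had deviations correlated from -0.46 to 0.25. Columns of other samples numbered 0. Alternatives were other scalings, filters and limma options, blocks for replicate number and for the number in the labels split at 3000, and leaving out each array.

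The members and the 15 gene lists, drawn from general knowledge, were chosen with earlier results of these data known. Named genes are all members; per member, from the 5 highest and 3 lowest Pearson r among other named genes; and per list and contrast up to 5 called genes by smallest p, or the 2 with the smallest p. Lce3 promoter windows (RefSeq, GRCm38.p6) were aligned and searched with Biopython 1.88. Protein sequences were not used here.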

Additional observations from a re-analysis of the deposited data

How the results depend on the processing

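Of the 78 Lce3 differences, 2 passed; over 2286 alternative values, 13 lost a call and 15 gained one. Sign turned in 76 values, all of differences that had not passed, the largest of them 0.54 in size. Many alternatives leave a difference as it is and so could not turn its sign. Examples are leaving out an array outside the comparison and the trend and robust options. The 2 Lce3 genes called in KO from 0 h to 24 h became 1 with limma's trend and robust options, with a fit on those groups alone, with the number class as a block and with numbers from 3000 up only, and 0 to 2 when single arrays were left out. From 0 h to 6 h in KO, 1 was called with numbers from 3000 up only (Lce3f, where KO 6 h is the single array of replicate 1, assumed to vary like the other groups), and 0 to 1 without single arrays. For 24 h against 0 h over both genotypes, 2 were called after a further quantile normalisation and in the fit on those groups alone, 1 with the replicate block, 1 with numbers from 3000 up only, 1 without both high KO arrays (replicate 1 of KO 6 h and of KO 24 h, chosen after seeing the data), and 0 to 2 without single arrays. Causes were not tested, beyond the fewer arrays in the fits that drop some.

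The replicate block kept both KO calls at 24 h (limma adjusted p = 0.0239 for Lce3c and 0.0275 for Lce3d); arrays share only a number, since the median correlation of their deviations was -0.02 for equal numbers and 0.01 otherwise.

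With numbers from 3000 up only, the difference of WT 6 h from WT 0 h turned to 0.27 for Lce3c and 0.48 for Lce3d, and that of KO 24 h from KO 6 h to -0.63 and -0.85; each 6 h group, and WT 0 h, is 1 array there, so these are differences from single arrays. The latter ran from -0.22 to 1.04 for Lce3d without single arrays. Lce3e in KO against WT at 6 h was -0.028 with numbers below 3000 only and -0.0016 without both high KO arrays, and ran from -0.0016 to 0.30 without single arrays. Of the 5 genes most like each member by Pearson r, 0 to 3 were also among the 5 by Spearman rho, and 0 to 1 by group means.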
